A study of Arabidopsis thaliana with 6 samples.

Results

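The SET domain proteins related to the Rubisco methyltransferase were followed in whole seedlings of Arabidopsis thaliana that carry the atsf1-2 mutation and in seedlings of Col-0, the wild type and the ecotype of both groups. The family was taken as 10 loci, of which 7 had a probe set on the ATH1 array that the platform annotation pairs with that locus alone, among 13286 loci measured in this way. The family was picked because LSMT-L (AT1G14030) was seen to be strongly lower in atsf1-2 on these same arrays. The values of LSMT-L are therefore a description with no test. The other members entered by their relation to it. Earlier results of these data were known at that point, so the list was not fixed before the data were seen. The annotation pairs no probe set with AT3G56570, PTAC14 (AT4G20130) or SDG40 (AT5G17240), which are not analysed here. It gives no gene for 8730 of 22746 probe sets, so a locus without a named probe set may still be on the array.

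AtSF1 is a pre-mRNA splicing factor, and the comparison asked which transcripts differ when it is mutated. The atsf1-2 group and the Col-0 group had 3 biological replicates each, with 1 array per replicate. Seedlings of both groups received no treatment and were harvested at 9 days from MS agar plates kept at 23 C, with a light period of 16 h and a dark period of 8 h. The labels give no further detail of the allele, and AtSF1 (AT5G51300) has no probe set of its own in the annotation, so the mutated gene was not checked on the arrays.

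SET domains transfer methyl groups from S-adenosylmethionine to lysine residues, and most plant SET domain proteins act on histones. In a separate branch the SET domain is followed by a C-terminal substrate-binding domain, and its best-known members act on proteins other than histones. Its founding member in pea trimethylates a lysine of the large subunit of Rubisco, the enzyme that fixes carbon dioxide in the chloroplast. The Arabidopsis counterpart, LSMT-L, is known to methylate the chloroplast fructose-bisphosphate aldolases of the Calvin cycle. PTAC14 is a subunit of the complex around the plastid-encoded RNA polymerase. The other measured members are named by locus in RefSeq's gene table (TAIR10.1), and no role is given for them here.

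On these arrays a signal is the MAS5 summary of 1 probe set on a linear scale, and the arrays had been scaled to nearly equal trimmed means of 500.04 to 500.05. Median signals were 165 to 181 in atsf1-2 and 183 to 196 in Col-0. Replicate 3 of atsf1-2 and replicate 2 of Col-0 stood apart. Across probe sets, Pearson's r between their log2 signals and those of their own genotype was 0.965 to 0.977, against 0.984 to 0.990 for pairs without them. The 3'/5' signal ratio of the actin control tracks RNA integrity and labelling, and a higher ratio means relatively less 5' signal. It was 2.47 and 2.14 on these arrays and 3.36 to 3.63 on the other arrays. By this control the arrays that stand apart were not the poorer ones. The GAPDH and ubiquitin ratios did not set the atsf1-2 array apart. For GAPDH they were 1.09 on atsf1-2 replicate 3, 0.896 on Col-0 replicate 2 and 1.04 to 1.15 on the other arrays, and for ubiquitin 1.31, 1.22 and 1.301 to 1.459 in the same order. Tissue markers were present, such as PYK10, a root protein, with a signal of 15723 ± 476 in atsf1-2 and 15808 ± 1072 in Col-0 (SD, n = 3 each). Of the shoot markers, LHCB4.3, a light-harvesting protein of photosystem II, could be measured, and it rose in atsf1-2 by 0.56 on the log2 scale (limma adjusted p = 0.0487), a call lost under 11 of 15 alternatives (limma adjusted p of 0.0216 to 0.142). Its part in the results below was not tested. In whole seedlings, fewer cells of a type and less RNA per cell cannot be told apart. Each measured member had 1 probe set, so a signal covers only the probed part of its transcript, and splicing was not measured.

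Of the measured family, LSMT-L was the lowest in atsf1-2 relative to Col-0, AT3G07670 and AT3G55080 were also lower, and the other 4 members had overlapping signals in the 2 genotypes. LSMT-L, the aldolase methyltransferase, had signals of 76.2, 91.6 and 60.7 in atsf1-2 seedlings, against 319, 217 and 318 in Col-0 seedlings. All 3 mutant arrays lay far below the lowest Col-0 array. The means were 76.2 ± 15.4 in atsf1-2 and 284 ± 58.9 in Col-0 (SD, n = 3 each), so that LSMT-L stood at 26.8% of its Col-0 level as a ratio of geometric means. On the log2 scale the change, atsf1-2 over Col-0, was -1.90 ± 0.23 (SE), the 5th lowest of 13648 probe sets. Probe sets were compared between genotypes only when their geometric mean over the 6 arrays was at least 104.4, and the mutant signals of LSMT-L all lie below that value. The size of its difference therefore depends on how dim signals are treated: with 38.3 added to each signal before taking logs, the log2 fold change was -1.49. The lowest signal of each genotype came from the arrays that stand apart, and without both arrays the log2 fold change was -1.93.

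**Figure D1:**
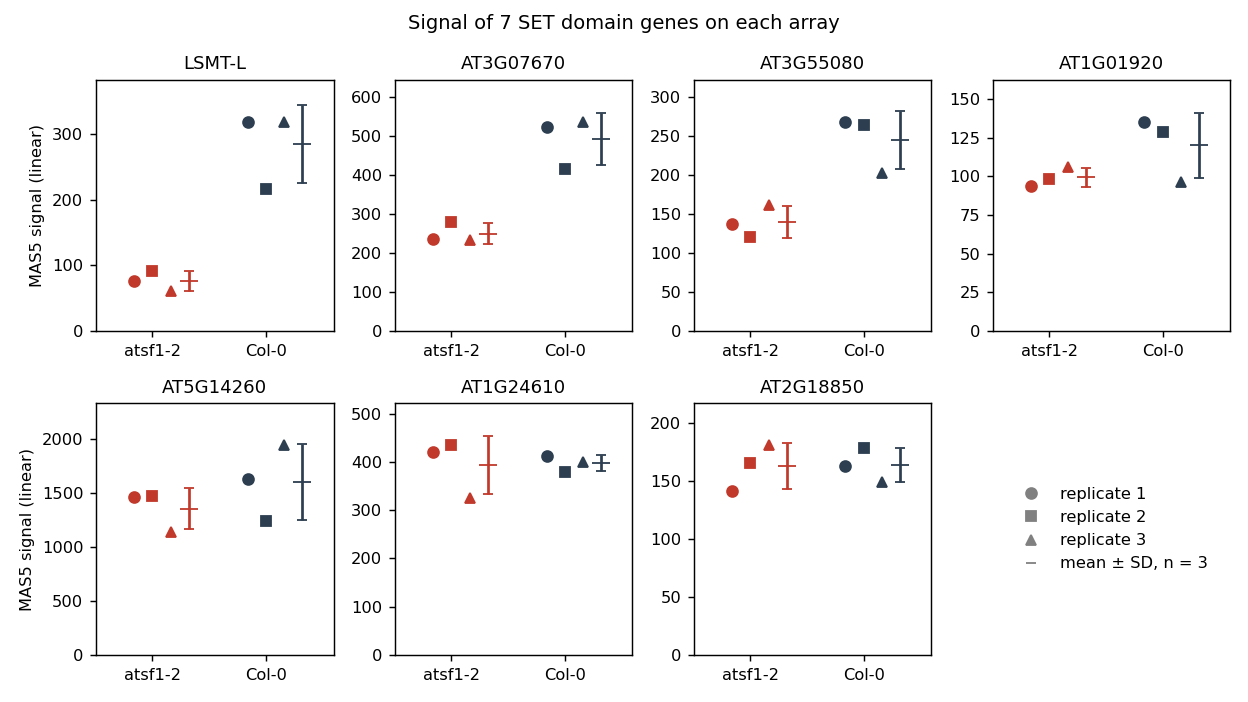
MAS5 signal (linear scale, vertical axis from 0) of the 7 measured SET domain genes on each array, with atsf1-2 in red left of Col-0 in dark blue. Symbols mark replicates, bars give the mean ± SD of 3 arrays, and the genotypes are fully separated for LSMT-L, AT3G07670 and AT3G55080 but overlap in the other 4 panels.

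AT3G07670, a member of the family with no symbol of its own, fell in atsf1-2. Its signals were 237, 280 and 233 in atsf1-2 seedlings, against 524, 417 and 537 in Col-0 seedlings. The genotypes did not overlap, and the spread within each was small beside the difference. The means were 250 ± 26.1 in atsf1-2 and 493 ± 66.0 in Col-0 (SD, n = 3 each). As a ratio of geometric means, the mutant stood at 50.9% of Col-0. The change was -0.97 ± 0.16 on the log2 scale (SE), with a 95% interval of -1.33 to -0.62 and a limma adjusted p of 0.00724 over all tested probe sets. All 6 of its signals lay above the filter value of 104.4. The call held under each of the 15 alternative settings, with log2 fold changes of -1.09 to -0.83 and limma adjusted p of 0.000414 to 0.0431.

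AT3G55080 also fell, by a smaller amount and with less margin over the replicate spread. Its signals were 138, 121 and 162 in atsf1-2 seedlings, against 268, 265 and 202 in Col-0 seedlings. The genotypes did not overlap, but replicate 3 of atsf1-2 and replicate 3 of Col-0 came close to each other. The means were 140 ± 20.6 in atsf1-2 and 245 ± 37.2 in Col-0 (SD, n = 3 each). The ratio of geometric means put the mutant at 57.3% of Col-0. The log2 fold change was -0.80 ± 0.20 (SE), with a 95% interval of -1.24 to -0.37 (limma adjusted p = 0.0326). This call ended under 9 of 14 alternatives, although the log2 fold change stayed between -0.94 and -0.66. Leaving out replicate 1 or 2 of atsf1-2 gave limma adjusted p of 0.0911 and 0.0688. Leaving out replicate 1, 2 or 3 of Col-0 gave limma adjusted p of 0.146, 0.0937 and 0.0543. With the replicate number as a block it was 0.0795. It also missed the threshold with no filter on dim probe sets (0.0717), after quantile normalization (0.0647) and after median centring of the arrays (0.0554). Without both arrays that stand apart it passed, with a log2 fold change of -0.85 (limma adjusted p = 0.0414).

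The remaining members did not pass the test. AT5G14260 had signals of 1466, 1471 and 1139 in atsf1-2 seedlings, against 1629, 1241 and 1945 in Col-0 seedlings. The Col-0 arrays spread so widely that they enclosed 2 of the 3 mutant arrays. The means were 1358 ± 190 in atsf1-2 and 1605 ± 352 in Col-0 (SD, n = 3 each), and the 95% interval of the log2 fold change ran from -0.62 to 0.16 (limma adjusted p = 0.451). AT1G01920 lay near the filter value in both genotypes, at 93.5, 98.2 and 106 in atsf1-2 seedlings, against 135, 129 and 96.3 in Col-0 seedlings. One Col-0 array fell within the range of the mutant. AT1G01920 passed the filter only through its Col-0 signals, so nothing is read from its test. The 95% interval of its log2 fold change ran from -0.74 to 0.22 (limma adjusted p = 0.481).

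AT1G24610 had signals of 421, 434 and 325 in atsf1-2 seedlings, against 412, 380 and 399 in Col-0 seedlings. The Col-0 arrays all lay inside the range of the mutant arrays, whose lowest value came from the replicate that stands apart. Its change was -0.02 ± 0.16 on the log2 scale (SE), with a 95% interval of -0.37 to 0.32 (limma adjusted p = 0.942). AT2G18850 had signals of 142, 166 and 181 in atsf1-2 seedlings, against 163, 179 and 150 in Col-0 seedlings. Here too the mutant arrays enclosed all Col-0 arrays. The log2 fold change was -0.01 ± 0.19 (SE), with a 95% interval of -0.42 to 0.40 (limma adjusted p = 0.975). For these 2 genes the interval leaves out a change of the size seen for AT3G07670, whereas the sign of the small difference turned with quantile normalization or median centring. Differences between the members' fold changes were not tested.

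**Figure D2:**
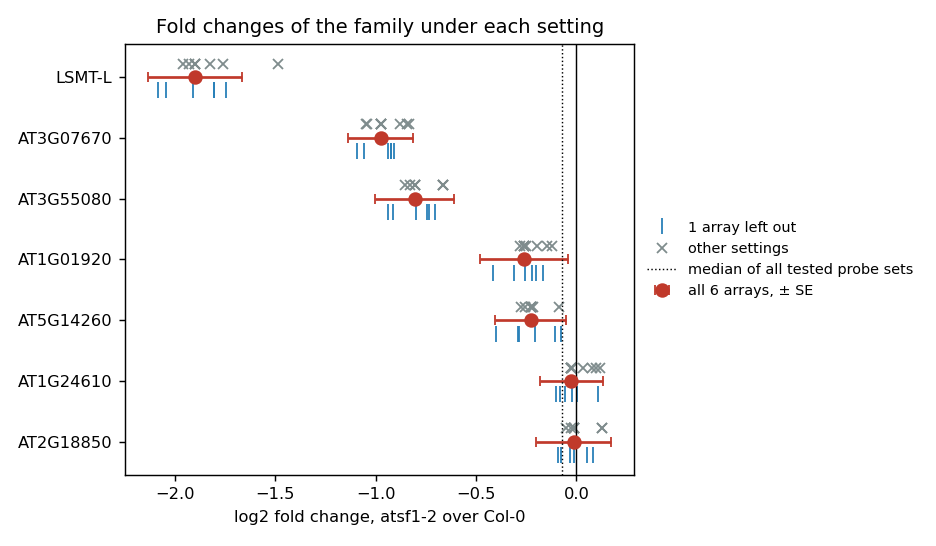
Log2 fold change (atsf1-2 over Col-0, horizontal axis) of each measured family member. Red points show all 6 arrays ± SE from limma, blue ticks the fits with 1 array left out and grey crosses the other settings; the values of LSMT-L, AT3G07670 and AT3G55080 stay at or below -0.66 in each fit, and those of AT1G24610 and AT2G18850 lie on both sides of 0.

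Set against the arrays as a whole, 2 of the 6 members other than LSMT-L were called lower and none higher. Over all 13648 tested probe sets, 5.19% were called lower and 3.00% higher in atsf1-2 (limma, adjusted p under 0.05). At an unadjusted p under 0.05 the count was also 2 lower and 0 higher, against 16.5% lower and 9.50% higher over all tested probe sets. The genotypes did not overlap, with atsf1-2 lower, for 3 of 7 members including LSMT-L, and for 19.2% of all tested probe sets. The family was chosen on this comparison, so these shares describe its members and nothing is read from them. The median log2 fold change was -0.24 over the 6 other members and -0.07 over all tested probe sets. The counts over the 6 other members and their median include AT1G01920, which passed the filter only through its Col-0 signals. Nothing is read from that median either. Centring each array on its median moved the median of all probe sets by 0.14 on the log2 scale. Relative to the median of all tested probe sets, the log2 fold changes were -1.83 for LSMT-L, -0.90 for AT3G07670 and -0.73 for AT3G55080.

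**Figure D3:**
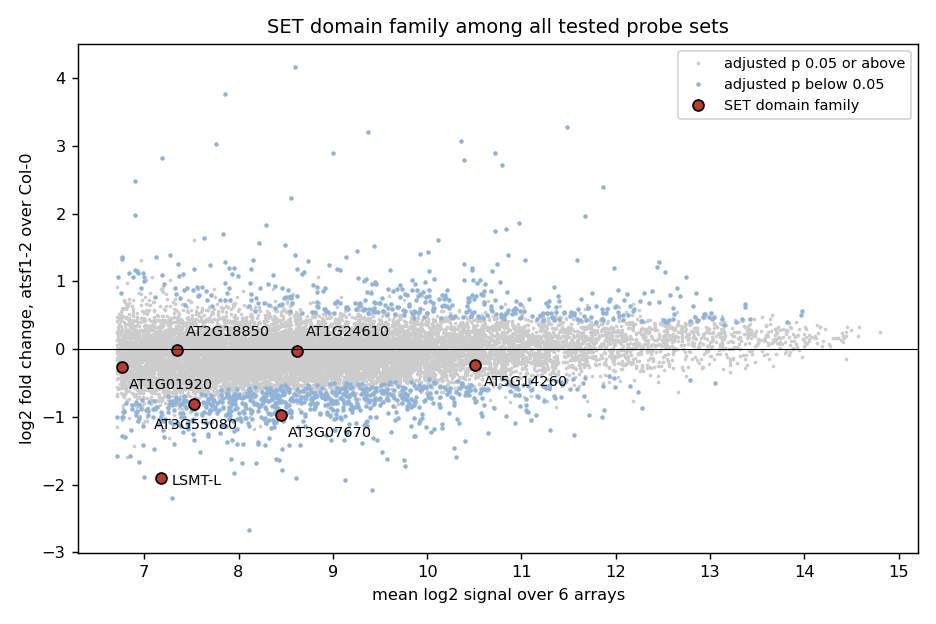
Log2 fold change (atsf1-2 over Col-0, vertical axis) against mean log2 signal over 6 arrays (horizontal axis) for 13648 tested probe sets, with those at an adjusted p below 0.05 in blue, the others in grey and the 7 family members in red. LSMT-L lies near the lower edge at -1.90, AT3G07670 and AT3G55080 lie in the blue band of lower probe sets, and the other 4 members lie in the grey band.

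Genes of the Calvin cycle and of Rubisco, to which the targets named above belong, were measured only in part. A link between the measured ones and the family was not tested. Of 17 loci for plastid aldolases and other Calvin cycle enzymes, 3 had a named probe set and none passed (limma, 0 also at an unadjusted p under 0.05), and the aldolases that LSMT-L methylates are not among them. SBPASE, the sedoheptulose-bisphosphatase of the cycle, averaged 7149 ± 1227 in atsf1-2 and 8489 ± 607 in Col-0 (SD, n = 3 each; limma adjusted p = 0.243). PRK, the phosphoribulokinase that makes the acceptor for carbon dioxide, averaged 8954 ± 1683 in atsf1-2 and 10112 ± 412 in Col-0 (SD, n = 3 each; limma adjusted p = 0.413). The median log2 fold change of the 3 genes was -0.19.

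Of 14 loci for Rubisco subunits, its activase and its assembly factors, 5 were measured and none passed (limma, 0 also at an unadjusted p under 0.05). RCA, the Rubisco activase, averaged 22459 ± 3707 in atsf1-2 and 19974 ± 2058 in Col-0 (SD, n = 3 each; limma adjusted p = 0.460). AT5G51110, a Rubisco accumulation factor, averaged 5119 ± 748 in atsf1-2 and 5698 ± 393 in Col-0 (SD, n = 3 each; limma adjusted p = 0.462). The log2 fold changes of the 5 genes ran from -0.16 to 0.20, with a median of 0.07. The annotation used here names no probe set for 11 further loci of the plastid RNA polymerase complex or for 37 other SET domain loci, so neither group was analysed.

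The genes next to the members on the chromosomes, in the order of the TAIR10.1 table, were looked up after the members' values were known. Of 14 neighbouring protein-coding genes, 7 had a named probe set and 5 could be tested, and none passed (limma, 0 also at an unadjusted p under 0.05). AT1G14020, the neighbour of LSMT-L, averaged 260 ± 44.8 in atsf1-2 and 207 ± 31.1 in Col-0 (SD, n = 3 each), which differ by 0.33 ± 0.19 on the log2 scale (SE; limma adjusted p = 0.318). AT3G07660, beside AT3G07670, averaged 516 ± 155 in atsf1-2 and 550 ± 61.0 in Col-0 (SD, n = 3 each; limma adjusted p = 0.740). AT3G55070, beside AT3G55080, averaged 380 ± 24.96 in atsf1-2 and 419 ± 51.4 in Col-0 (SD, n = 3 each; limma adjusted p = 0.610).

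The pattern of LSMT-L over the 6 arrays was compared with those of all other tested single-gene probe sets, using the root mean square difference between log2 signals after removing each probe set's mean. The most similar pattern was that of AT1G57770, at 0.22. It was followed by AT5G59130, a subtilase, at 0.27, QQS, a regulator of leaf starch, at 0.27, AT4G30993 at 0.33 and AT4G03200 at 0.36. These 5 genes had log2 fold changes of -1.90 to -1.51, and their patterns were selected for being like that of LSMT-L. Within the family, AT3G07670 was the closest at 0.48, ranking 36th of 7245, and AT3G55080 followed at 0.68, ranking 323rd. The measure includes the difference between genotypes, for which LSMT-L was chosen. These ranks therefore mostly repeat the fold changes, and nothing further is read from them. In LSMT-L, AT3G07670, AT5G14260 and AT1G24610, the lowest arrays of each genotype were those that stand apart, replicate 3 of atsf1-2 and replicate 2 of Col-0. In AT3G55080, AT1G01920 and AT2G18850, replicate 3 of atsf1-2 was instead the highest of its genotype and replicate 3 of Col-0 the lowest.

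**Figure D4:**
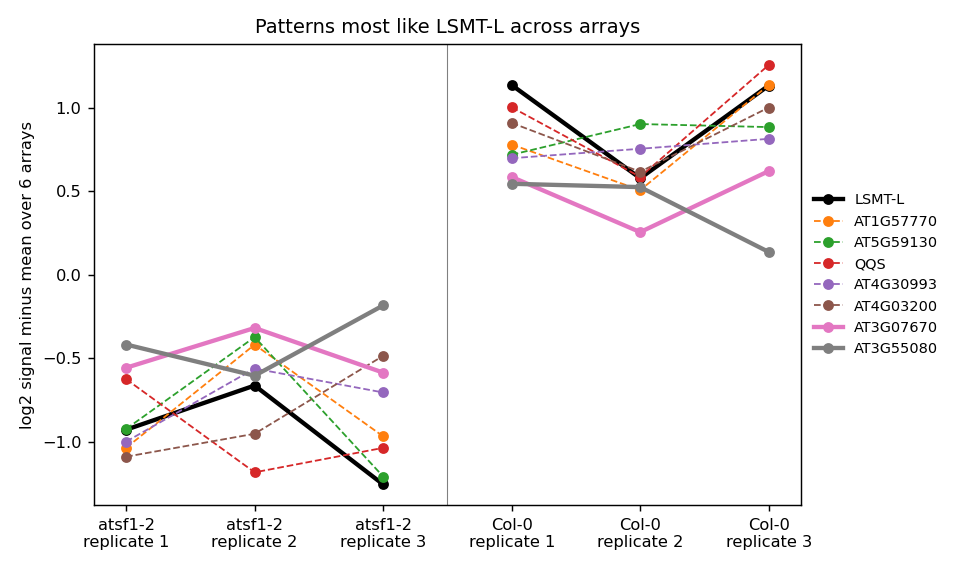
Log2 signal minus the mean over 6 arrays (vertical axis) on each atsf1-2 and Col-0 array, for LSMT-L in black, the 5 genes of most similar pattern as dashed lines and AT3G07670 and AT3G55080 as thick lines; lines only join arrays of a genotype, which have no order. All 8 genes lie below 0 on the atsf1-2 arrays and above 0 on the Col-0 arrays, and the family members AT3G07670 and AT3G55080 span less than LSMT-L.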

How the data were processed

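Total RNA of whole seedlings was labelled with biotin (300 ng per sample) and hybridised to ATH1 arrays, per the labels' protocols. The deposited values are signal intensities on a linear scale, which the authors made with the MAS5 algorithm (Affymetrix Expression Console, version 1.2), per the submitters' processing notes. Detection settings and genome build: not given in the sources used here. Groups came from the sample titles, and precision is limited by the small number of arrays.

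Of 22746 probe sets without controls, 13513 were annotated with 1 gene, and 13436 of these matched the RefSeq table of assembly TAIR10.1 by gene identifier. Deposited signals were taken to log2 with no added constant, and the 13648 probe sets at or above the 40th percentile of mean log2 signal were compared across all probe sets with limma 3.58.1 in R 4.3.3 (lmFit, eBayes with trend), two-sided, and p-values were adjusted by Benjamini-Hochberg (threshold 0.05). All 7 measured members passed this filter, LSMT-L and AT1G01920 only through their Col-0 signals. The fit was tested on simulated data.

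All measured members are named. From each other list, members past the threshold are named, or otherwise the 2 with the smallest p. The genes of most similar pattern are the 5 closest to LSMT-L. PYK10 is named beyond this rule. The members and lists were chosen with earlier results of these data known. Alternatives were no filter, the 60th percentile, a pseudocount (25th percentile of the signals), quantile normalization, median centring, eBayes without trend, array weights, the replicate block and leaving out each array. Leaving out both arrays that stand apart was added after seeing the data. The markers EXPA18 and EXPA7 of the root list had limma adjusted p of 0.827 and 0.942, and the annotation names no probe set for the seed storage markers.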

Additional observations from a re-analysis of the deposited data

How the results depend on the processing

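AT3G07670 kept its call and AT5G14260 and AT1G01920 stayed short of the threshold under each alternative that tested them. With the 60th percentile filter LSMT-L, AT2G18850, AT3G55080 and AT1G01920 were not tested. The log2 fold change of LSMT-L was -2.08 to -1.75 with 1 array left out and -1.49 with the pseudocount. The 2 members called lower became 1 with no filter, the 60th percentile filter, quantile normalization, median centring or the replicate block, and 1 to 2 with 1 array left out. The member lost was AT3G55080, with log2 fold changes of -0.80 with no filter and with the replicate block, -0.67 after quantile normalization, -0.66 with median centring, and -0.94 to -0.70 with 1 array left out. The log2 fold change of AT1G24610 turned to 0.098 after quantile normalization, 0.12 with median centring, 0.031 with array weights and 0.076 without both arrays that stand apart, and ran from -0.10 to 0.11 with 1 array left out. That of AT2G18850 turned to 0.127 after quantile normalization and 0.128 with median centring, and ran from -0.093 to 0.084 with 1 array left out.

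Over all probe sets, 409 were higher and 709 lower. These were 267 and 439 with no filter, 755 and 362 with median centring, 947 and 1713 with array weights, and 171 and 263 with the replicate block. By eBayes without trend 271 were higher. Leaving out 1 array gave 130 to 463 higher and 151 to 777 lower, with the fewest without atsf1-2 replicate 1 (130 and 221) and without Col-0 replicate 1 (140 and 151), 2 (154 and 261) or 3 (142 and 204). The lower share of calls was 63.4%, 51.5% after quantile normalization and 32.4% with median centring. No filter and left-out arrays change the number of probe sets or arrays tested. Median centring raised every log2 fold change by the same 0.14. The cause of the other moves was not tested. Deviations of same-numbered arrays correlated at 0.10, -0.19 and -0.21, so the numbers do not show that samples were paired, and the block changed no other call of a member. Signals near those of dim probe sets, as for LSMT-L in atsf1-2 and AT1G01920, limit how well a fold change can be sized.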
